A study of Mus musculus with 6 samples.

Results

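The splicing and RNA helicase genes described here are those whose symbol begins with Srsf, Hnrnp, Sf3a, Sf3b, Snrp, Prpf, Rbm, Ddx, Dhx, Lsm or U2af, the names of the SR proteins, heterogeneous nuclear ribonucleoproteins (hnRNPs), small nuclear ribonucleoprotein (snRNP) proteins, pre-mRNA processing factors, RNA-binding motif proteins and DEAD- and DEAH-box helicases. Rbm had to be followed by a digit or an x, and Ddx, Dhx and Lsm by a digit. The rule used the gene symbol alone. It took 84 NF-YA peaks annotated to 68 genes, of 9056 peaks in all and of 5146 peaks with a gene symbol. To profile NF-YA binding, CUT&RUN was used, in which an antibody directs a nuclease to its target in permeabilised cells and the released DNA is sequenced. The cells were muscle stem cells (MuSCs) of wild type C57BL/6 mice. The paper describes sorting of cells lacking SCA1, CD45 and CD31, either as Integrin-α7-positive cells or by GFP from Pax7-zsGreen reporter mice. It does not say which route served these libraries. The sorted cells were then cultured, so that they were activated and proliferating. There were 3 NF-YA libraries and, with mouse IgG in place of the NF-YA antibody, 3 control libraries. The NF-YA values are described, IgG values were not used here, and no mutant or treated group belongs to the series. Sorted cells from adult mice of both sexes were used, and the labels do not tie a library to a single animal. DNA libraries carry no marker transcripts, so the cell type was not checked against its markers.

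Pre-mRNA splicing is carried out by the spliceosome, whose snRNPs recognise the splice sites and whose DEAH-box helicases drive its rearrangements. SR proteins and hnRNPs bind exons and introns and shift the choice of splice sites, and DEAD-box helicases act at nearly every step of an RNA's life, from transcription to decay. NF-Y is a trimer of NF-YA, NF-YB and NF-YC in which NF-YA reads the CCAAT box, a promoter element usually found shortly upstream of the transcription start site. CCAAT on the strand of the gene and its inverse, ATTGG, are the same site read from either side.

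DNA from some of the member peaks, several of them among the highest, is shown first. Each stretch holds the largest group of neighbouring boxes of its peak, which need not lie where the signal was highest. The boxes shown for Hnrnpul1 lie near its start, away from the peak centre. Sequences were read 5′ to 3′ on the strand of the gene from GRCm38, the assembly behind mm10, and capitals mark CCAAT or ATTGG. The stretches below carry groups of boxes upstream of, or for Rbm14 and Hnrnpul1 reaching across, the start sites of Rbm14, which had the steadiest high signal, of Hnrnpr, Hnrnpc, Hnrnpul1 and Ddx50, and of the spliceosome scaffold gene Prpf8 and the SR gene Srsf6. They lie at chr19:4811633-4811729 (minus strand), chr4:136310787-136310926 (plus), chr14:52104061-52104261 (minus), chr7:25754732-25754879 (minus), chr10:62651303-62651398 (minus), chr11:75486724-75486788 (plus) and chr2:162931184-162931250 (plus).
Rbm14: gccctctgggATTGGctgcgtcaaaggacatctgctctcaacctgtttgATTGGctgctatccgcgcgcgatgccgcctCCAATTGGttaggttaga
Hnrnpr: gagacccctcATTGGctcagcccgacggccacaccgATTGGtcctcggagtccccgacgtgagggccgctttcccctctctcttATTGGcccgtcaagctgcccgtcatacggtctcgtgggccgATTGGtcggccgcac
Hnrnpc: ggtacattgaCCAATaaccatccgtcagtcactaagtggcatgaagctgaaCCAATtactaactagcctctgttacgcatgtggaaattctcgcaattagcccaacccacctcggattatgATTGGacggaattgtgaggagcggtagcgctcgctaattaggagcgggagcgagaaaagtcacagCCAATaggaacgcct
Hnrnpul1: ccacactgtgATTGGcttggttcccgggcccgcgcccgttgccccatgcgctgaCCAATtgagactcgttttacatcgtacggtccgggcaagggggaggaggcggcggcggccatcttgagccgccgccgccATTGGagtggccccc
Ddx50: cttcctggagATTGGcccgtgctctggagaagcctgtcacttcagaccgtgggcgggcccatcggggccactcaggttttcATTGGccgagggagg
Prpf8: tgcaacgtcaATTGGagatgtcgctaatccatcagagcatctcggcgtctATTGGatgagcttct
Srsf6: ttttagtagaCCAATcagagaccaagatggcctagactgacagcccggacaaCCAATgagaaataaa
All 4 boxes of the Hnrnpr stretch and both boxes of the Ddx50, Prpf8 and Srsf6 stretches face one way, inverted in the first 3 genes and on the strand of the gene in Srsf6. In Rbm14 the last 8 capitals, CCAATTGG, read as CCAAT on both strands and were counted as 2 boxes. Such overlapping inverted boxes occurred 4 times among the 133 boxes of all 84 peaks.

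The following stretches belong to peaks away from an annotated start of their gene. That of Ddx6 lies at chr9:44603563-44603666 (plus) and that of the upstream peak of Hnrnpll at chr17:80064031-80064180 (minus), both more than 1000 bp upstream of the start and outside annotated exons.
Ddx6: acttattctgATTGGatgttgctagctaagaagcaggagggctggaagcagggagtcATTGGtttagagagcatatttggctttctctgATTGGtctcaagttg
Hnrnpll upstream peak: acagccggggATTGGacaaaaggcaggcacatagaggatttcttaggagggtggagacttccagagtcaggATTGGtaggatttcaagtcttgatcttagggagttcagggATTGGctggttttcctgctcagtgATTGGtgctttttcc
Where boxes lay within annotated exons, only 25 bases around 1 box are given, chosen within the largest group of neighbouring boxes as the one nearest to an annotated start. These are for Rbm15 at chr3:107333101-107333125 (minus), Hnrnpl at chr7:28810763-28810787 (plus), Rbm4 at chr19:4793923-4793947 (minus) and Snrpa at chr7:27196211-27196235 (minus), to which the single boxes of the muscle splicing regulator Rbm24 at chr13:46418392-46418416 (plus) and of Rbmx at chrX:57393093-57393117 (minus) are added.
Rbm15: aatagtttttCCAATgagaaggctg
Hnrnpl: tgcgtcctatCCAATagaaatgaac
Rbm4: taccgaacggCCAATccggtgggta
Snrpa: taaccatgtcCCAATTGGccagaag
Rbm24: gctgtcccggCCAATcgcaggcgtc
Rbmx: aagggaacagCCAATgaagaatctg

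Values are given as normalised reads, that is reads per peak after the authors' size-factor scaling and rounding. They were not corrected for peak length, so levels of different genes are also given per kb of peak. The reads in peaks behind the values were estimated as 481324, 226955 and 334651 in replicates 1, 2 and 3. The median of the 84 peaks corresponded to about 31.6, 15.6 and 26.5 reads, so most single low values are imprecise. Across the 84 peaks, log2(value + 1) of the libraries correlated with Pearson's r of 0.931 between replicates 1 and 2, 0.938 between 1 and 3 and 0.954 between 2 and 3. These correlations run across peaks, which are not replicates. With 1 group of 3 libraries no test between groups was possible, and 3 values against 3 cannot reach a two-sided exact permutation p below 0.10, so peaks are compared by whether their values overlap.

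The highest NF-YA signals were found at Rbm15, Hnrnpul1 and Hnrnpl. Rbm15 (ENSMUSG00000048109), which helps to direct the m6A RNA methyltransferase to its targets, held 404, 480 and 464 normalised reads, in the order of replicates 1, 2 and 3 that is kept throughout. Its mean of 449 ± 40.1 (SD, n = 3) ranked 36 among all 9056 peaks. Its peak (chr3:107332987-107333864) spanned the start site, and its centre lay in the 5′ UTR, 247 bp downstream of the start. All 8 CCAAT boxes of this peak lay downstream of the start that the table uses, between 67 and 592 bp, and all were on the strand of the gene. Hnrnpul1 (ENSMUSG00000040725), an hnRNP U-like protein, held 447, 420 and 406 (424 ± 20.8), in a range that overlapped that of Rbm15. Its peak (chr7:25754627-25755674) was 1048 bp long, was centred 394 bp upstream of the start and held 8 boxes. Of these, 0 lay wholly within 50 bp of the centre, and the nearest had its middle 49 bp away. Hnrnpl (ENSMUSG00000015165), a splicing regulator that binds CA repeats, held 355, 337 and 302 (331 ± 27.0), below both others in all 3 libraries.

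The Hnrnpl signal did not lie at the start that the table uses. Its highest peak (chr7:28810262-28810957) was centred in intron 1, 2069 bp downstream of the start and 280 bp upstream of a later annotated start of the same gene, and held 7 boxes. At the first start, Hnrnpl had a second peak with 19, 35 and 27 normalised reads and no CCAAT. The third, also in intron 1, had 15, 12 and 16. The ranges of the highest and second peak did not overlap, and their means differed 12.3-fold.

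Among the next highest peaks were 2 further hnRNP genes, a U6 snRNA-associated Lsm gene and neighbouring Rbm genes. Hnrnpul2 held 269, 266 and 321 normalised reads (285 ± 30.9) in a peak that also lay within 1000 bp of the start of Ttc9c on the opposite strand. Hnrnpc, which binds uridine tracts of nascent transcripts, held 258, 245 and 232 (245 ± 13), all below Hnrnpul2. Lsm4, a member of the ring that binds U6 snRNA, held 224, 194 and 245 (221 ± 25.6) in a peak centred 187 bp into the gene, with 2 inverted boxes at 73 and 104 bp downstream of the start. These boxes lay 58 and 27 bp upstream of a later annotated start of Lsm4. Rbm4 and Rbm14, neighbours on the minus strand of chromosome 19, held 202, 235 and 212 (216 ± 16.9) and 190, 191 and 192 (191 ± 1.00). Rbm4 regulates alternative splicing and Rbm14 is a transcription coactivator found in paraspeckles. The values of Rbm4 all lay above those of Rbm14. Among member peaks whose mean was at least 20, Rbm14 varied least, with a coefficient of variation (CV) of 0.524%.

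Snrpa, the A protein of the U1 snRNP, held 161, 163 and 170 normalised reads (165 ± 4.73) in a peak centred 13 bp into the gene, with BC024978 starting on the opposite strand. Ddx50, a nucleolar helicase, held 146, 137 and 185 (156 ± 25.5), overlapping Snrpa. Hnrnpr held 135, 129 and 136 (133 ± 3.79), and all 5 of its boxes were inverted. Per kb of peak the order changed. Rbm15 stayed highest with 512 ± 45.6 normalised reads per kb, followed by Rbm4 with 489 ± 38.3, Hnrnpl with 476 ± 38.7, Ddx50 with 426 ± 69.7 and Snrpa with 410 ± 11.8, whereas Hnrnpul1 had 405 ± 19.9 and Rbm14 had 259 ± 1.36. The spreads of Rbm15, Rbm4 and Hnrnpl overlapped on this scale.

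**Figure D1:**
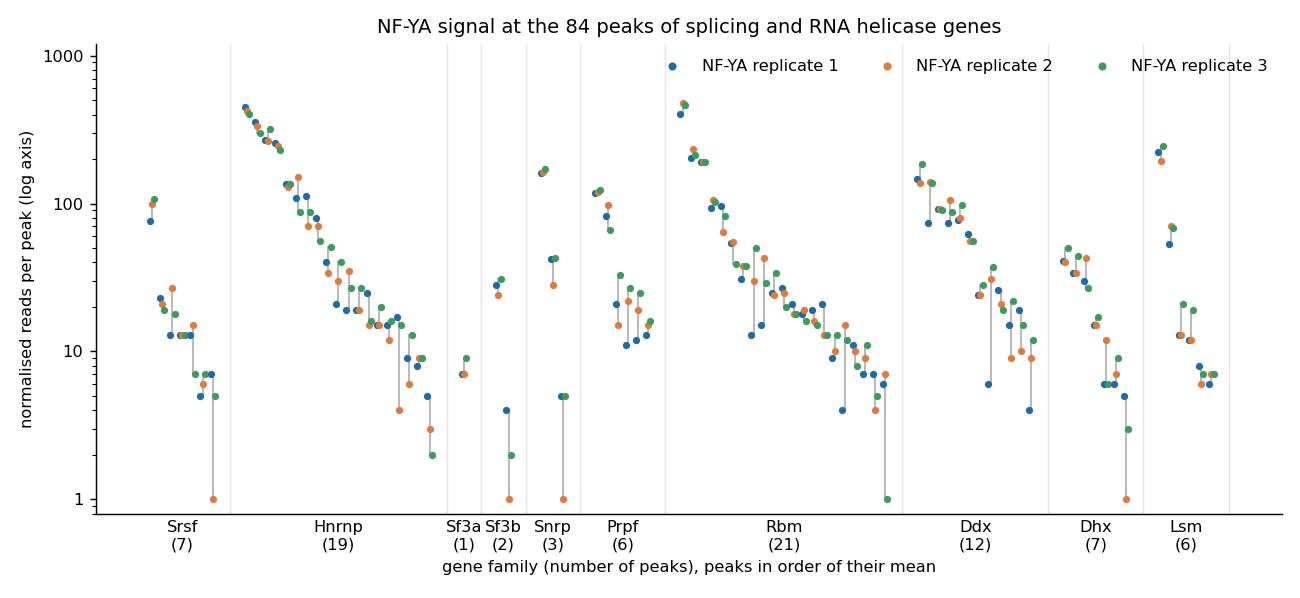
Normalised reads per peak (log axis) at all 84 peaks, grouped by gene family, with a point for each NF-YA replicate and a grey line over their range. Rbm15 reaches 480 and Hnrnpul1 447, whereas the highest Dhx peak stays at or below 50 in every library.

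As a group, the members sat close to the other gene-annotated peaks. Their median was 21, 23 and 27 normalised reads in replicates 1, 2 and 3, beside 21, 22 and 22 over all peaks with a symbol. Members over all peaks with a symbol gave a log2 ratio of 0.12 ± 0.16 (SD, n = 3), a difference smaller than the spread between libraries. A mean of at least 100 was reached by 15 of 84 members (17.9%, 95% Wilson interval 11.1 to 27.4%), compared with 14% of all peaks with a symbol. Of these 15, Hnrnp genes gave 6, Rbm genes 4, Ddx genes 2, and Snrp and Lsm genes 1 each, while Srsf, Sf3a, Sf3b and Dhx genes gave 0. At the low end, 8 members were at or below the worth of 3 reads in at least 1 library, among them Sf3b4 (4, 1 and 2), Dhx8 (5, 1 and 3), Hnrnpd (5, 3 and 2) and the peak in the first intron of Srsf5 (7, 1 and 5). Above that floor in all libraries were 90.5% of members, beside 86.7% of all peaks with a symbol. All intervals here cover counting error only.

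Next, the families were compared by how many of their genes had an annotated peak at all. The annotation (GENCODE M21) names 177 protein-coding genes that match the rule, and 68 of them had a peak (38.4%, interval 31.6 to 45.8%), compared with 18.9% of 22028 protein-coding genes, expressed or not. A promoter peak, with its centre within 1000 bp of the start of the annotated gene, was found at 60 of the 177 (33.9%), beside 14.7% of all protein-coding genes. The share was highest for Hnrnp genes, with 13 of 20, followed by Srsf with 5 of 11, Rbm with 19 of 43 and Dhx with 7 of 16. Prpf and Lsm genes each had 5 of 13. It was lower for Ddx with 9 of 37 and Snrp with 2 of 12, and it was 1 of 3 for Sf3a, 2 of 6 for Sf3b and 0 of 3 for U2af, whose small numbers allow no order. Differences between families were not tested.

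**Figure D2:**
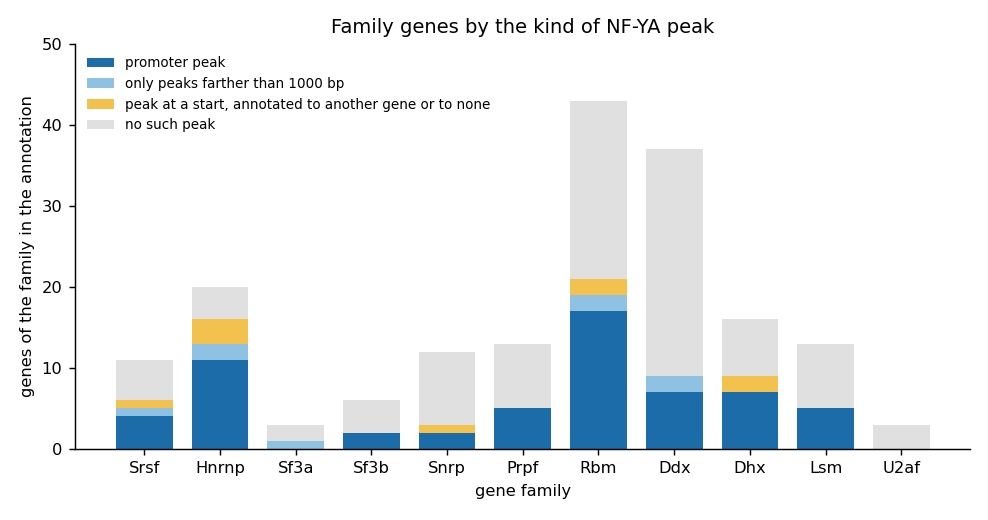
Number of annotated genes per family, divided by the kind of NF-YA peak. Hnrnp has a peak at 13 of 20 genes and 3 more with a peak at a start that the table annotates to another gene, while none of the 3 U2af genes has one.

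Annotation to the nearest gene left some family genes without a listed peak although a peak lay at their start. This was the case for 9 genes, and counting any peak within 1000 bp of an annotated start gave 73 of 177 genes (41.2%), beside 19.0% of all protein-coding genes. Hnrnpa1, a major splicing repressor, had the largest such signal, with 379, 408 and 459 normalised reads (415 ± 40.5) in a peak annotated to Cbx5 and centred 576 bp from the Hnrnpa1 start, which held 11 boxes. Snrpd2, a core Sm protein of the snRNPs, had 224, 256 and 232 (237 ± 16.7) in a peak annotated to Qpctl. Hnrnph2 shared 64, 75 and 81 with Gla, and Rbm10 shared 78, 56 and 67 with Ndufb11. Hnrnpk lay beside peaks of 37, 22 and 30 and of 19, 27 and 19 listed for Rmi1. Srsf7 had 6, 25 and 12, Dhx57 had 9, 9 and 8, and Dhx30 had 5, 3 and 2 in a peak listed without a gene.

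Of 24 well-known splicing and helicase genes looked up by name, 7 had an annotated peak, Hnrnpa1 and Hnrnpk were covered as described, and 15 had neither. These 15 were Srsf1, Hnrnpa2b1, Hnrnpu, Sf3a1, Sf3b1, U2af1, U2af2, Snrpb, Snrpn, Prpf19, Ddx3x, Ddx17, Dhx9, Dhx36 and Lsm2. The peak nearest to a start of one of them was 4741 bp away, at Sf3a1. Absence from the table means that no peak was retained there, and reads outside peaks were not used here.

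Of the 7 peaks of SR protein genes, 6 had a mean below the members' median of 22.5. Srsf6 was the exception with 76, 100 and 108 normalised reads (94.7 ± 16.7), in a peak centred 413 bp upstream of its start. This peak held 2 boxes of the longer consensus, shown above, which lay 81 and 123 bp from its centre. Srsf3, which regulates splicing and mRNA export, had 3 peaks. That at its start held 23, 21 and 19 over an inverted box 24 bp upstream, that in intron 1 held 13 in all 3 libraries, and that in intron 3, 11 bp from a later annotated start, held 13, 15 and 7. Srsf2, an SR protein needed for exon inclusion through exonic enhancers, held 13, 27 and 18 at 350 bp upstream, where Mfsd11 starts on the opposite strand. Srsf9 had a peak of 5, 6 and 7 that lay 7378 bp upstream. Among the core snRNP and U2 genes apart from Snrpa, Snrpf held 42, 28 and 43, Sf3b2 held 28, 24 and 31 and Sf3a3, the highest and only Sf3a peak, held 7, 7 and 9 at 5654 bp upstream of its start. Lsm1, an Lsm protein of cytoplasmic mRNA decay, held 53, 71 and 68 and Lsm8 of the nuclear ring held 12, 12 and 19.

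Among the factors that drive spliceosome rearrangement, Prpf8, the central scaffold of the U5 snRNP, held 82, 98 and 66 normalised reads (82.0 ± 16.0), with boxes at 216, 80 and 40 bp upstream of its start. Dhx38, the helicase of the second catalytic step, was the highest Dhx gene with 41, 40 and 50 (43.7 ± 5.51), in a peak shared with the start of Txnl4b. Dhx16, which acts before the first step, held 6, 12 and 6. Dhx29, which helps ribosomes to scan structured 5′ UTRs, held 30, 43 and 27 at a start it shares head to head with Mtrex, the RNA helicase of the nuclear exosome. Of the DEAD-box genes, Ddx6, a repressor of translation in P-bodies, held 92, 92 and 91 (91.7 ± 0.58) at 1256 bp upstream of its start, second to Rbm14 in steadiness. Ddx39a, an mRNA export helicase, held 74, 105 and 87 over a pair of boxes at 55 and 30 bp upstream. Ddx54 held 78, 80 and 98 in intron 1 and 62, 56 and 56 nearer to its start, where its peak had no CCAAT.

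Lower values were found at some further Rbm genes. Rbm24, a splicing regulator of skeletal and heart muscle, held 11, 10 and 8 (9.67 ± 1.53) over 1 box 30 bp upstream of its start. Rbm20, which controls titin splicing in the heart, held 4, 15 and 12 at 5697 bp upstream. Rbmx, which encodes an hnRNP, held 9, 10 and 13 over 1 box 69 bp upstream, and Rbm3, a cold-inducible protein, held 21, 13 and 13. These 4 lay in the lower part of the members, whose median of the means was 22.5, and at these values single libraries rest on few reads.

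Most member peaks sat at start sites. Promoter peaks were 65 of 84 (77.4%, interval 67.4 to 85.0%), compared with 68.4% of all peaks with a symbol, which lies within that interval. Of the promoter peaks 42 were centred upstream, with a median position of 77 bp upstream, and 39 of the 84 peaks spanned the start itself. Promoter peaks had medians of 25, 30 and 33 normalised reads in replicates 1, 2 and 3, while the other 19 had 13, 12 and 13, a log2 ratio of 1.20 ± 0.23 (SD, n = 3) that held in every library. Over all peaks with a symbol the ratio was 1.29 ± 0.08. Among members outside promoters, Hnrnpl and Ddx6 stood highest, followed by Hnrnpf with 21, 30 and 40, Rbm12b2 with 27, 25 and 20 and the upstream peak of Hnrnpll with 19, 19 and 27. This Rbm12b2 peak lay within 1000 bp of the start of Tmem67, a protein-coding gene on the opposite strand. Of the 19, 6 lay within 1000 bp of another annotated start of the same gene (31.6%, interval 15.4 to 54.0%, beside 20.1% of all such peaks), namely both intronic peaks of Hnrnpl, Hnrnpf, Hnrnpm, the intron 3 peak of Srsf3 and Ddx39b.

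**Figure D3:**
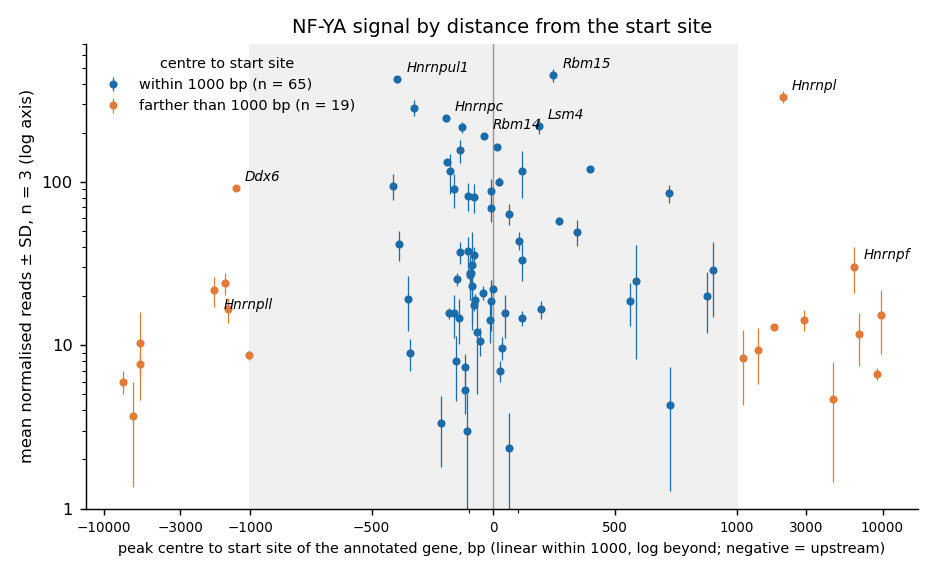
Mean normalised reads ± SD (n = 3, log axis) of each member peak against the distance of its centre from the start of the annotated gene, linear within 1000 bp and logarithmic beyond. The 65 promoter peaks reach 449 at Rbm15, and among the 19 others only Hnrnpl and Ddx6 exceed 50.

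Several promoter peaks lay close to the start of a gene on the opposite strand. A protein-coding gene started on the opposite strand within 1000 bp of the centre at 16 of the 65 promoter peaks (24.6%, interval 15.8 to 36.3%), beside 15.3% of all promoter peaks with a symbol. Besides Hnrnpul2, Snrpa and Dhx38 these included Ddx5 with Cep95, Lsm1 with Bag4 and Ddx54 with Rita1. The signal at such a start cannot be assigned to one gene of the pair.

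CCAAT lay within 50 bp of the peak centre in 47 of 84 members (56.0%, interval 45.3 to 66.1%), close to the 59.1% of all peaks with a symbol. In windows of the same width 1000 bp to either side it occurred in 10.7% and 14.3% of members. Anywhere in the peak it occurred in 61 of 84 (72.6%), beside 72.3% of all peaks with a symbol. The longer consensus, with purines before the box and G or C and a purine after it, lay within 50 bp of the centre in 18 members (21.4%, interval 14 to 31%), beside 30.2%. GGGCGG, the core of the GC box, was found there in 38.1% of members and 32.5% of all peaks with a symbol. All 15 members with a mean of at least 100 held between 1 and 8 boxes, while the highest member without CCAAT was the Ddx54 peak nearer to the start, with a mean of 58.0. Over all peaks with a symbol, those without CCAAT reached at most 94.7. A box in every peak with a mean of at least 100 was thus not particular to the members. Hnrnpul1, Hnrnpul2 and Lsm4 were the highest members without a box wholly within 50 bp of the centre, and all 3 had boxes elsewhere in long peaks. In Hnrnpul1 1 box lay across the edge of that window.

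The signal was higher where a peak held more boxes. Members with no CCAAT had a median of 9.33 normalised reads (n = 23), those with 1 box 19.2 (n = 30), those with 2 boxes 80.7 (n = 13) and those with 3 or more 125 (n = 18). Peaks with more boxes were also longer, with median lengths of 147, 219.5, 354 and 427 bp. Per kb the medians were 72.8, 94.3, 183 and 256. Across the 84 members the Spearman correlation of the level was 0.733 with the number of boxes and 0.944 with the length, and 0.369 with the boxes per kb. The points share libraries, and longer peaks hold more of both reads and boxes. Over all peaks with a symbol the medians for the same classes were 9.33, 19.0, 45.3 and 116.

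**Figure D4:**
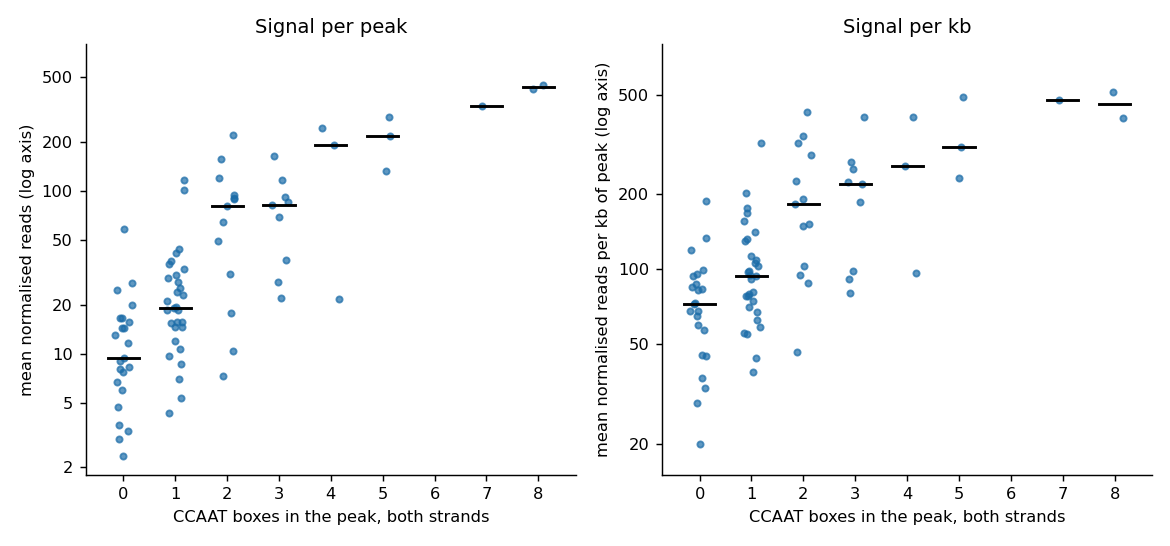
Mean normalised reads of the 84 member peaks (left) and the same per kb of peak (right), both on log axes, against the number of CCAAT boxes in the peak on either strand, with a point per peak and a bar at the median. The median rises from 9.33 without a box to 80.7 with 2 boxes, and from 72.8 to 183 per kb.

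The boxes lay where CCAAT is usually found. The 65 promoter peaks of members held 113 boxes, at a median of 73 bp upstream of the nearest annotated start, and 61.1% of them (interval 51.8 to 69.5%) lay 1 to 150 bp upstream. Over all promoter peaks with a symbol the median was 72 bp and the share 61.8%. On the strand of the gene were 45.1% of the boxes (interval 36.3 to 54.3%), beside 51.1%. Single genes departed from this arrangement. In Rbm15 all boxes were on the strand of the gene and downstream of the start that the table uses. All but the box 592 bp downstream lay upstream of a later annotated start of Rbm15. In Hnrnpr all boxes were inverted and upstream. Rbm4 combined 3 boxes on the strand of the gene with 2 inverted ones within 203 bp upstream.

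**Figure D5:**
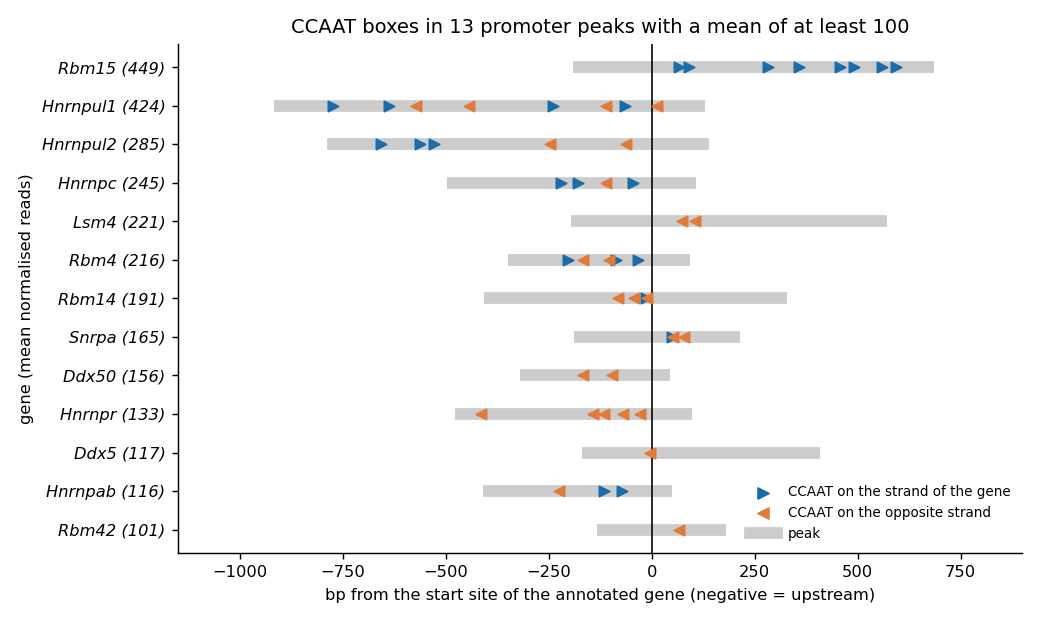
Position of CCAAT boxes in 13 of the 14 promoter peaks with a mean of at least 100 normalised reads (the other is not reported here), in bp from the start of the annotated gene, with blue arrows for boxes on the strand of the gene, orange arrows for inverted boxes and grey bars for the peaks. The 8 boxes of Rbm15 all lie to the right of the start, and the 5 boxes of Hnrnpr all lie to its left and are inverted.

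Promoter sequence from RefSeq (GRCm38), 250 bases before to 50 after each start, was matched for 150 of the 177 family genes. CCAAT on either strand occurred in 35 of 48 family genes with a promoter peak (72.9%, interval 59.0 to 83.4%) and in 39 of 96 without an annotated peak (40.6%, interval 31.3 to 50.6%). All protein-coding genes gave 76.9% with a promoter peak, 35.5% without a peak and 42.1% overall. GGGCGG occurred in 64.6% of the family genes with a promoter peak and 68.8% of those without an annotated peak, beside 51.0% of all protein-coding genes. A match is a description of the letters and does not identify a bound site.

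Several genes carried more than 1 peak. Of the 68 genes, 12 had 2 peaks, and Hnrnpl and Srsf3 had 3. In all 14 the 3 values of the highest peak lay above those of the second, by a median of 5.91-fold and from 1.47-fold at Ddx54 to 49.9-fold at Rbm15. Peaks were ranked by the mean of these same values, so the direction of the difference was fixed by the choice. The same comparison was not made over all peaks with a symbol. The highest peak held more boxes than the second in 11 of the 14. Hnrnpll was an exception, with 80, 71 and 56 normalised reads over 3 boxes near its start and 19, 19 and 27 over 4 inverted boxes further upstream.

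Between libraries the members varied about as much as other peaks, with a median CV of 17.9% beside 21.3% of all peaks with a symbol, and 15.9% beside 15.3% among peaks with a mean of at least 20. The most variable members of that size were the second peak of Ddx5, in intron 1, with 6, 31 and 37 normalised reads, Rbm39, a U2AF-related splicing factor, with 13, 30 and 50, and Rbm25 with 15, 43 and 29. In all 3 replicate 1 was the lowest. Replicate 1 was below 50% of the mean of the other replicates in 4 of 46 members of that size (8.70%, interval 3.43 to 20.3%), beside 57 of 2708 among all peaks with a symbol. The main Ddx5 peak also had its lowest value in replicate 1, with 74, 140 and 138. The paper lists shorter reads and fewer uniquely mapped reads for replicate 1 than for each of the other replicates. It also lists more called peaks for replicate 1 than for each of them, so the libraries were not sequenced alike. Whether this difference bears on the low values of replicate 1 was not tested.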

How the data were processed

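CUT&RUN libraries of 3 NF-YA and 3 IgG samples of wild type MuSCs were grouped by their titles. According to the methods and the submitters' processing notes, the authors trimmed reads with Trimmomatic 0.39, aligned them to mm10 with STAR 2.7.9a, removed duplicates with Picard 2.25.5, called peaks per NF-YA library with MACS2 over IgG, merged them, counted reads with featureCounts and normalised with DESeq2 1.30.0. The deposited values, which carry the unit score, are the authors' size-factor-normalised reads per peak rounded to whole numbers, so no count test was used. Size factors assume that the typical peak is equal in all libraries, and peaks were selected on the libraries whose levels are given. Every per-sample column could be assigned (0 left over).

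The worth of 1 read was estimated from the whole numbers that occur (0.664, 1.48 and 1.02 in replicates 1, 2 and 3), a step recovered within 0.1% in 6 simulations of 9056 peaks. The floor of 3 reads equals 1.99, 4.43 and 3.06 normalised reads. Starts were read as counted from 0 and are printed counted from 1. Starts, exons and family genes came from GENCODE M21, in which 67 of 68 member genes had identical ends, and DNA from GRCm38.p6. CCAAT and GGGCGG were searched on both strands, near peak centres in windows of 101 bp that had to hold the whole match, with overlapping matches counted. Levels are means ± SD over 3 libraries, and shares carry 95% Wilson intervals. Members, gene lists and alternatives were chosen with earlier results of these data known. Named are the 12 highest peaks, the highest of each family, genes with 3 peaks, the 5 highest outside promoters, the 3 most and least variable with a mean of at least 20, the 3 highest without a central box and the 3 with most boxes, 24 genes chosen by name and the 5 highest peaks of 137 related genes. Other members were named after their values were seen, and some items that the rule names are not reported here. Alternatives covered library size, peak length, a minimum mean of 10, reference set, promoter distance, CCAAT window, 1 peak per gene, a narrower symbol match and leaving out each replicate. The comparison with IgG was not made. Python 3.11.15, numpy 2.4.6, pandas 2.3.3, scipy 1.17.1, pysam 0.24.0, samtools 1.23.1 and matplotlib 3.10.9 were used.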

Additional observations from a re-analysis of the deposited data

How the results depend on the processing

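Of 32 alternatives, 22 were counted as unchanged. The limit was the spread or interval of the value reported, except for family genes with a peak, where a fold limit on their number was used. The log2 ratio of the medians of members and all peaks with a symbol, 0.12, became -0.12 with a minimum mean of 10 and -0.089 among promoter peaks, each within its own spread between libraries, and 0.65 with all peaks of the table as reference, which holds many peaks without a symbol. It was 0.03 to 0.18 without single replicates, and the total of the values in peaks as library size leaves it as it is by construction. The promoter share of 77.4% became 90.5% within 5000 bp, 86.9% with any annotated start and 85.3% with 1 peak per gene, beside 85.6%, 77.6% and 75.1% for all peaks with a symbol. The CCAAT share of 56.0% became 72.6% within 100 bp of the centre and also 72.6% anywhere in the peak, and 21.4% with the longer consensus, beside 71.5%, 72.3% and 30.2%. The median CV of 17.9% was 11.8 to 17.3% without single replicates, lowest without replicate 3. The number of family genes with a peak stayed between 55 and 73, the upper end with any peak within 1000 bp of a start, an alternative chosen after seeing the data. The lower end, with a minimum mean of 10, was 31.1% of 177 genes, just below the interval of 31.6 to 45.8%. A narrower reading of the symbol rule left 70 peaks and moved neither the level beyond its spread nor the promoter and CCAAT shares beyond their intervals. No paired analysis was possible because the IgG values were not used, so 3 alternatives of the comparison with IgG were not run. Depth limits the low members, 8 of which were at or below 3 reads in some library. Above 3 reads in all libraries were 90.5% of members, beside 86.7% of all peaks with a symbol.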

Other observations

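Splicing and helicase genes with other names carried NF-YA peaks as well. Of 137 such genes, listed by function, 42 had a peak (30.7%) and 40 a promoter peak, beside 18.9% and 14.7% of all protein-coding genes. Their 51 peaks had a median of 35.3 normalised reads, beside 21.7 over all peaks with a symbol. Promoter peaks were 44 of the 51 (86.3%), beside 68.4% of all peaks with a symbol. Over all peaks with a symbol, promoter peaks had medians of 31, 30 and 32 in the 3 replicates, and the others 12, 13 and 13. Whether the higher median goes with this location was not tested. CCAAT lay within 50 bp of the centre in 34 of the 51 peaks (66.7%, 95% Wilson interval 53.0 to 78.0%). That interval holds the 59.1% of all peaks with a symbol. The highest was that of Khsrp, a regulator of splicing and mRNA decay, with 504, 604 and 569 normalised reads in replicates 1, 2 and 3 (559 ± 50.7, SD, n = 3). Sf1, which recognises the branch point, held 358, 338 and 328 (341 ± 15.3), and Wbp11, a spliceosome component, held 248, 238 and 228 (238 ± 10.0). Sfpq, a paraspeckle protein, held 203, 233 and 213 (216 ± 15.3), and Prmt5, which methylates Sm proteins for snRNP assembly, held 200, 189 and 202 (197 ± 7.0). The values of Khsrp lay above those of every other peak in this paragraph, and those of Sf1 above the remaining 3.

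By function, a peak was found at 17 of 34 other splicing regulators, 8 of 27 Prp19 and B complex proteins, 4 of 16 SR-related proteins and SR kinases, 4 of 15 other RNA helicases, 3 of 14 proteins of the U1, U5 and minor snRNPs, 3 of 9 exon junction complex proteins, 2 of 9 U2 and branch point factors and 1 of 13 snRNP assembly proteins. Differences between these lists were not tested.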
